A study of Mus musculus with 21 samples.

Results

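RNA of forelimb buds (FBs) was measured in 3 samples of E10.5 mouse embryos that had been cultured for 1 h and in 3 samples of E10.5 embryos that had not been cultured (0 h). These 6 arrays, out of 21 in the series, were chosen by their labelled stage and culture time. All embryos were of the Swiss stock, carried no named allele and received no agent. In the cultured group whole embryos were kept outside the uterus in rotating bottles, and the FBs were dissected afterwards. Each array was hybridized with RNA of a separate biological replicate, and how many embryos went into one is not given in the sources used here. The same contrast was available in E12.5 FBs (1 h and 0 h, 3 arrays each), and 3 arrays of E10.5 FBs at 3 h show where the levels stood next. The arrays were Affymetrix Mouse Exon arrays, which read each gene with many probes along its exons. The deposited values are log2 values, so that a difference of 1 is a doubling. A total of 14860 genes was compared.

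The E10.5 FB is a paddle of mesenchyme covered by ectoderm. The apical ectodermal ridge at its rim secretes Fgf8, the zone of polarizing activity at its posterior edge secretes Shh, and Hox and LIM homeobox genes pattern the mesenchyme under the ridge. Explanting an embryo removes it from the maternal circulation and changes its temperature, oxygen and nutrient supply. Cells commonly answer such changes within minutes by transcribing immediate early genes, chaperone genes and targets of Atf4, the factor that is translated when amino acids run short or proteins misfold.

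The arrays carried the markers of a forelimb. *Tbx5*, the T-box gene that specifies the forelimb, lay at 9.86, 10.26 and 10.26 at 1 h and at 10.37, 10.53 and 10.66 at 0 h. *Pitx1*, which specifies the hindlimb, lay between 6.48 and 7.35 at 1 h and between 6.39 and 6.69 at 0 h. Across all genes, 0 h replicate 1 correlated less with 0 h replicates 2 and 3 (r = 0.9822 and 0.9829) than with 1 h replicates 2 and 3 (r = 0.9872 and 0.9882). The 0 h replicates 2 and 3 correlated with each other at r = 0.996 and 1 h replicates 2 and 3 at 0.9951. The 1 h replicate 1 correlated with the other 1 h arrays at 0.9852 and 0.9847. Thus 0 h replicate 1 and 1 h replicate 1 stood apart from their groups. Genes of placenta and decidua, yolk sac and red blood cells were high in 0 h replicates 2 and 3, and genes of neurons in 1 h replicate 1. The values are given beside the results they touch. In such bulk samples fewer cells of a type and less RNA per cell cannot be told apart. Y-linked genes differed too, with a mean over 3 genes of 7.50, 6.99 and 4.35 at 1 h and 7.63, 6.65 and 7.55 at 0 h, so that 1 h replicate 3 was the lowest.

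After 1 h of culture 414 genes were higher than at 0 h, which is 2.79% of the genes tested, and 167 were lower, which is 1.12% (limma, Benjamini-Hochberg adjusted p under 0.05). Together they are 581 genes, or 3.91%. At an unadjusted p under 0.05 the number was 2563. The 1 h arrays all lay above the 0 h arrays in 2012 genes (13.5%) and all below them in 1727 (11.6%). With each array shifted to a common median, 374 genes rose and 298 fell. The largest changes were falls. A change of at least 1 log2 unit was found in 167 of the genes that rose and in 70 of those that fell, whereas a change of at least 3 was found in 6 and in 19. The largest rises belonged to *Hspa1a*, a stress-inducible heat shock protein 70 (4.52), *Aldh1a2*, the main enzyme of embryonic retinoic acid synthesis (4.08), *Fabp7*, a fatty acid binding protein of glia (3.93), *Tnc*, the matrix protein tenascin C (3.55), and *Chac1*, a glutathione-degrading enzyme induced by stress (3.39). The largest falls belonged to *Prl8a2* (-7.23), *Erv3* (-7.08) and *Prl7a1* (-5.91), which were highest in 0 h replicates 2 and 3. Among the genes that rose, 114 were also called when 0 h replicate 1 was the only 0 h array, 189 without 1 h replicate 1, and 91 (22.0%) in both. Among the genes that fell these numbers were 15, 40 and 7 (4.19%). These are called the reduced fits in what follows. They hold fewer arrays and so have less power, and a call lost in them does not by itself show a smaller change. Over all genes 199 rose and 41 fell without 1 h replicate 1, so in a short list few calls are due. Of 109 called genes chosen for naming, 30 were called in both reduced fits and 79 lost the call in at least 1 of them. The 30 were *Acta2*, *Aldh1a2*, *Atf3*, *Calb1*, *Col12a1*, *Corin*, *Cxcl13*, *Ddit3*, *Dkk2*, *Ednrb*, *Efemp1*, *Egr1*, *Erv3*, *Fzd4*, *Gata5*, *Gdf10*, *Hspa1a*, *Jun*, *Kcnab1*, *Lrrn4*, *Mc2r*, *Ncam1*, *Ndnf*, *Ntrk2*, *Prl8a2*, *Rxrg*, *Stc2*, *Thbs4*, *Tnc* and *Upk3b*.

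**Figure D1:**
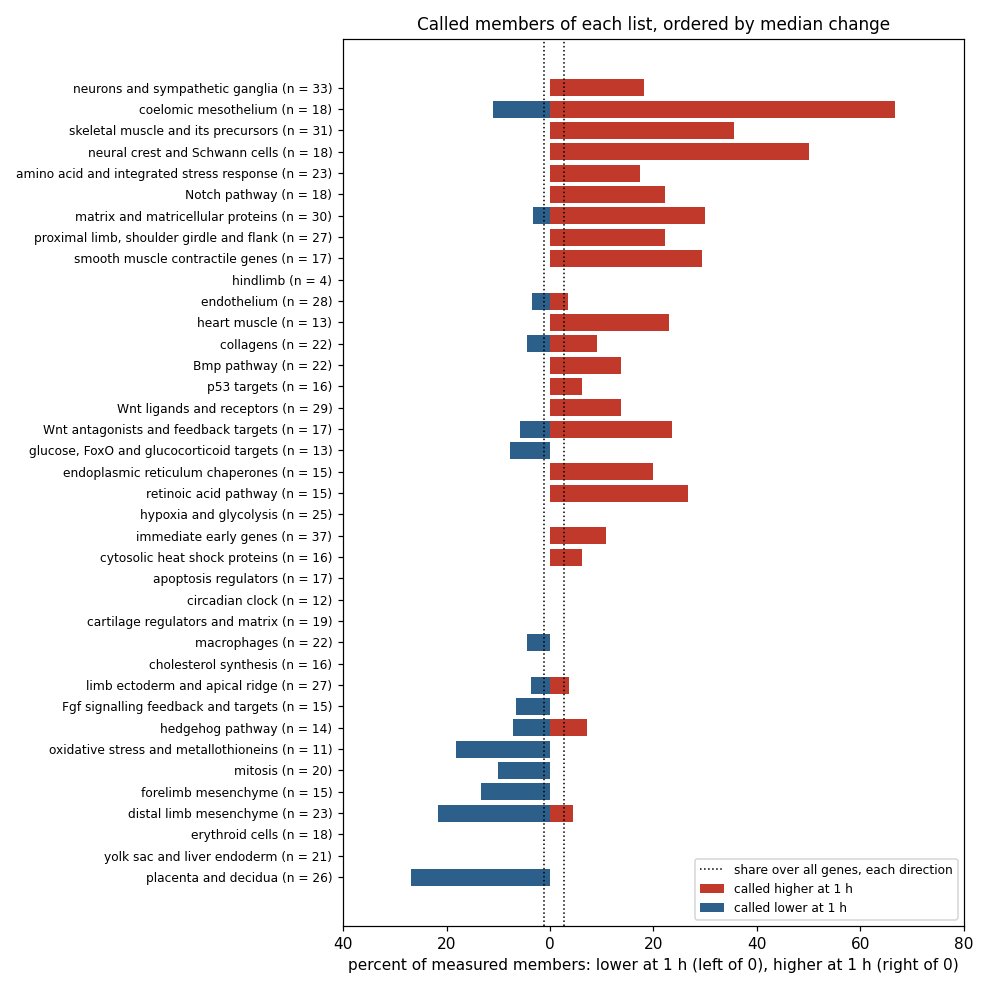
Share of the measured members of each gene list that were called higher (red, right of 0) or lower (blue, left of 0) at 1 h than at 0 h in E10.5 FBs, in percent, with the lists ordered by their median change. Dotted lines mark the shares over all genes, 2.79% and 1.12%. Coelomic mesothelium has the longest red bar (12 of 18) and placenta and decidua the longest blue bar (7 of 26).

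Promoter stretches of 5 genes of the stress response are shown because the genes rose together and because short motifs of known stress factors are found in them. They come from RefSeq promoters (GRCm38.p6), with the motif in capitals. In *Hspa1a* (chr17:34972157-34972306, minus strand) and *Jun* (chr4:95052223-95052372, minus strand) the capitals mark GAANNTTC, a unit of the element bound by heat shock factors. In *Atf3* (chr1:191183334-191183483, minus strand), *Chac1* (chr2:119350992-119351141, plus strand) and *Herpud1* (chr8:94386279-94386428, plus strand) they mark TTGCATCA, the reverse complement of TGATGCAA, the amino acid response element bound by Atf4. The stretches end at the base before the start site, except that of *Chac1*, which runs from 250 to 101 bases before it.
Hspa1a: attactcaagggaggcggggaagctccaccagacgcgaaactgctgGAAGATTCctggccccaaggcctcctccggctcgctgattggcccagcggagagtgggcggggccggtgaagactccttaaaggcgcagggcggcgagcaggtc
Jun: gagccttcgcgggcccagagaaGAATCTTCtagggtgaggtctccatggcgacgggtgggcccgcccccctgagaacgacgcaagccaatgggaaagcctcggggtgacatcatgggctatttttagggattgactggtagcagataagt
Atf3: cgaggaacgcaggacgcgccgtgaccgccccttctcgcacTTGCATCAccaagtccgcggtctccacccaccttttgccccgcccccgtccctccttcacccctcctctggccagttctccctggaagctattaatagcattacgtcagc
Chac1: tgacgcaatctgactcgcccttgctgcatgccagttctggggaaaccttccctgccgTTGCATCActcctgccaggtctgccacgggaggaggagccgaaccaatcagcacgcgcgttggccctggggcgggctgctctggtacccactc
Herpud1: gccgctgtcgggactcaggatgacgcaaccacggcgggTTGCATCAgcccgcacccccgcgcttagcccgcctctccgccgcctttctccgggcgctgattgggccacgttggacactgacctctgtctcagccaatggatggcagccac

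Of the genes called higher in the lists of immediate early genes, heat shock proteins, endoplasmic reticulum chaperones and the amino acid response, 11 had a promoter in the table. Within 250 bases before the start site, on either strand, TGATGCAA was found in 3 of them, against 0.791% of 32851 promoters. GAANNTTC was found in 2 of them, against 6.69%. The cAMP response element TGACGTCA was found in 0, against 1.55%. The motif starts 110 bases before the start site in *Atf3*, 193 in *Chac1*, 112 in *Herpud1*, 104 in *Hspa1a* and 128 in *Jun*. These are matches of letters and were not tested as binding sites, and the genes shown were chosen after the matches were seen.

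*Hspa1a*, whose protein refolds damaged proteins in the cytosol, had the largest rise of all genes. It lay at 11.90, 12.33 and 12.30 at 1 h and at 7.79, 7.75 and 7.44 at 0 h. The groups did not overlap, and all 1 h arrays were more than 4 log2 units above the highest 0 h array. The change was 4.52 (SE 0.43, adjusted p = 8.07e-06; gene 193740, chromosome 17, 34969359 to 34972156). The neighbouring copy *Hspa1b* is nearly identical in sequence and has no cluster of its own here, so the signal cannot be assigned to one of the copies. Of 16 measured genes of cytosolic heat shock proteins only *Hspa1a* was called, and the median change of the list was 0.02. *Hspa1a* was also called with 4.39 (adjusted p = 0.00352) from 0 h replicate 1 alone and 4.65 (adjusted p = 5.61e-05) without 1 h replicate 1, but an unmoderated test of each gene gave it an adjusted p of 0.074.

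Several targets of Atf4 were higher at 1 h. *Chac1* lay at 11.40, 10.40 and 10.81 at 1 h and at 7.56, 7.73 and 7.15 at 0 h, a change of 3.39 (SE 0.60, adjusted p = 0.00366; gene 69065, chromosome 2, 119351242 to 119354326). All 1 h arrays lay far above all 0 h arrays, with replicate 1 the highest. *Sesn2*, a leucine-binding inhibitor of mTORC1, lay at 10.38, 9.39 and 9.85 at 1 h and at 7.76, 7.85 and 7.75 at 0 h (2.09, adjusted p = 0.00579). Its groups were apart as well. *Stc2*, a secreted stanniocalcin, rose by 1.93 (adjusted p = 0.00395), and *Slc7a1*, the carrier of cationic amino acids, by 0.95 (adjusted p = 0.0349). Of 23 measured genes of the amino acid and integrated stress response 4 rose and 0 fell, against 2.79% and 1.12% of all genes. In this list 18 lay above 0, and the median change was 0.51 against -0.01 over all genes. *Ddit4*, an inhibitor of mTORC1, lay at 10.83, 10.56 and 10.55 at 1 h and at 9.72, 9.79 and 9.71 at 0 h, without overlap, but the test gave 0.91 with adjusted p = 0.171. With 0 h replicate 1 as the 0 h group, *Stc2* was called (2.06, adjusted p = 0.0482), whereas *Chac1* had 3.31 (adjusted p = 0.075) and *Sesn2* 2.11 (adjusted p = 0.0862), and 2 genes of the list were called.

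Among genes of protein quality control in the endoplasmic reticulum 3 of 15 rose, against 2.79% of all genes. *Ddit3*, which encodes the stress factor CHOP, lay at 8.97, 7.91 and 8.24 at 1 h and at 6.68, 6.89 and 7.14 at 0 h (1.47, adjusted p = 0.00272). *Herpud1*, which helps to clear misfolded proteins from the reticulum, averaged 10.55 ± 0.33 at 1 h and 9.23 ± 0.07 at 0 h (SD, n = 3 each; 1.32, adjusted p = 0.00244). Neither gene overlapped between the groups. *Sel1l*, of the same degradation machinery, rose by 0.30 (adjusted p = 0.0493). Its change was 0.49 from 0 h replicate 1 alone and 0.27 (adjusted p = 0.18) without 1 h replicate 1. Of 15 measured genes of this list 3 rose and 0 fell, with a median of 0.10, and 2 rose in either reduced fit.

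A small part of the immediate early genes rose. *Jun*, a subunit of the AP-1 transcription factor, lay at 10.61, 10.37 and 10.37 at 1 h and at 8.46, 8.85 and 8.80 at 0 h, a change of 1.75 (SE 0.16, adjusted p = 5.8e-06; gene 16476, chromosome 4, 95049036 to 95052222). *Atf3*, a repressor of the same family that is induced by many stresses, lay at 9.58, 8.43 and 9.08 at 1 h and at 6.27, 7.05 and 6.85 at 0 h (2.30, SE 0.35, adjusted p = 0.00118). Both genes were higher on each 1 h array than on any 0 h array. *Egr1*, a zinc finger factor induced by growth factors, rose by 0.81 (adjusted p = 0.0199), and *Nr4a2*, an orphan nuclear receptor, by 0.54 (adjusted p = 0.0372). *Fos*, the usual partner of *Jun*, lay at 6.27, 6.10 and 6.03 at 1 h and at 5.83, 6.71 and 6.53 at 0 h (-0.23, adjusted p = 0.864). Its groups overlapped, as did those of *Junb* (0.08, adjusted p = 0.859), *Ier2* (-0.07, adjusted p = 0.92), *Dusp1* (-0.01, adjusted p = 0.99), *Klf6* (0.40, adjusted p = 0.438) and *Myc* (0.02, adjusted p = 0.962). In all 4 of 37 measured immediate early genes rose and 0 fell, against 2.79% and 1.12% of all genes, and the median of the list was 0.05. *Jun*, *Atf3*, *Egr1* and *Ddit3* were all called both from 0 h replicate 1 alone and without 1 h replicate 1.

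**Figure D2:**
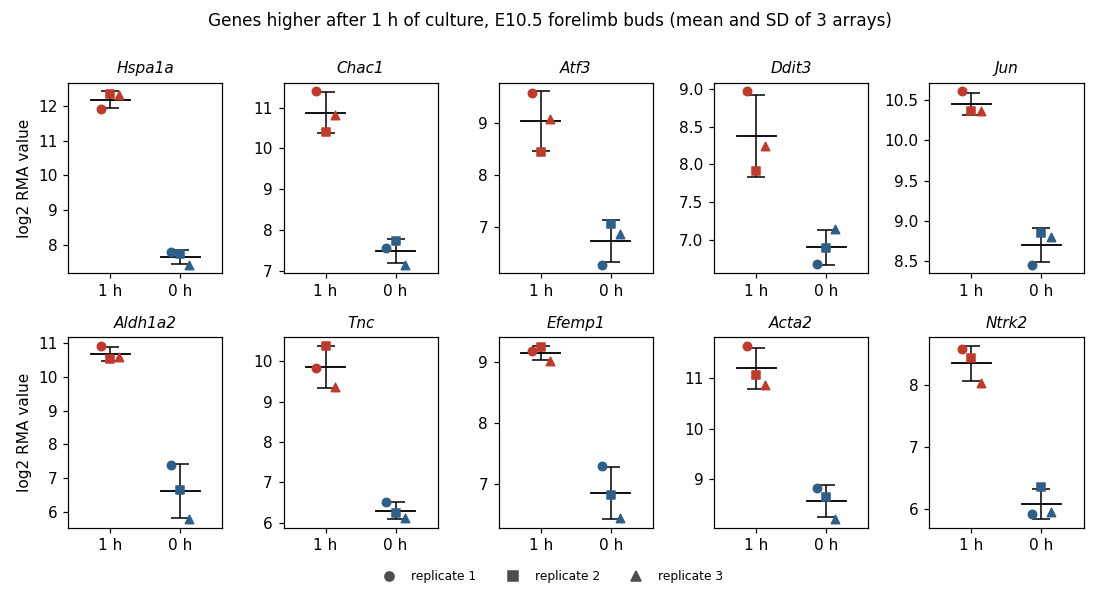
Log2 RMA values of 10 genes that were higher after 1 h of culture, on each array of E10.5 FBs at 1 h (red) and 0 h (blue), with the mean and SD of 3 arrays in black and a marker shape for each replicate; the vertical axes differ between genes and do not start at 0. In each of the 10 genes the 1 h points lie above all 0 h points, with the widest gap in *Hspa1a*.

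Other stress programs held 0 to 2 called genes each, where 3.91% of all genes were called. In lists this short, 0 calls are near that share. Of 25 genes of hypoxia and glycolysis 0 were called by limma, and the median was 0.06. The largest value among them belonged to *Egln3*, an oxygen-sensing hydroxylase, with 8.11, 8.19 and 8.06 at 1 h and 6.57, 7.37 and 7.18 at 0 h (1.08, adjusted p = 0.184). *Vegfa*, the hypoxia-induced vessel growth factor, differed by 0.20 (adjusted p = 0.384). Among 16 p53 targets *Plk2*, a polo-like kinase, rose by 0.61 (adjusted p = 0.0132), but from 0 h replicate 1 alone its change had adjusted p = 0.232. Among 11 genes of oxidative stress *Mt1*, the metal-binding metallothionein, fell by 1.64 (adjusted p = 0.0157) and *Srxn1*, which repairs peroxiredoxins, fell by 0.45 (adjusted p = 0.0473). *Mt1* lay at 9.80, 9.11 and 10.26 at 1 h and at 10.41, 11.86 and 11.82 at 0 h, with 0 h replicate 1 the lowest of its group, and from that array alone the change was -0.69 (adjusted p = 0.474). *Cited2*, a co-regulator in the list of glucose, FoxO and glucocorticoid targets, fell by 0.74 (adjusted p = 0.0365), with -0.46 (adjusted p = 0.445) from 0 h replicate 1 alone and adjusted p = 0.0632 without 1 h replicate 1. In the lists of the circadian clock (12 genes), apoptosis regulators (17) and cholesterol synthesis (16) 0 genes were called.

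The called genes of mitosis fell. *Plk1*, the kinase that drives entry into mitosis, lay at 11.09, 11.08 and 11.20 at 1 h and at 11.58, 11.66 and 11.60 at 0 h (-0.49, SE 0.09, adjusted p = 0.00424). *Kif23*, a kinesin of the dividing cell's midbody, fell by 0.34 (adjusted p = 0.0418). The groups did not overlap in either gene. Of 20 measured genes 2 fell and 0 rose, against 1.12% and 2.79% of all genes. In the list 19 lay below 0, and the median was -0.21. It was -0.20 from 0 h replicate 1 and -0.21 from 0 h replicates 2 and 3. Measured from 0 h replicate 1 alone, 0 of the 20 were called, and 1 fell without 1 h replicate 1.

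In the retinoic acid pathway 4 of 15 genes rose and 0 fell, against 2.79% and 1.12% of all genes, with a median of 0.09. *Aldh1a2* lay at 10.93, 10.53 and 10.61 at 1 h and at 7.39, 6.65 and 5.78 at 0 h. The 0 h arrays were spread over more than 1 log2 unit, with replicate 1 the highest, and all lay far below the 1 h arrays. The rise was 4.08 (SE 0.30, adjusted p = 5.51e-07; gene 19378, chromosome 9, 71215789 to 71296243). *Rxrg*, a retinoid X receptor, rose by 1.75 (adjusted p = 0.000156), *Aldh1a1*, another retinaldehyde dehydrogenase, by 1.12 (adjusted p = 0.0389), and *Rdh10*, which makes retinaldehyde, by 0.72 (adjusted p = 0.00919). The change of *Rdh10* was 0.40 (adjusted p = 0.297) from 0 h replicate 1 alone, where 2 genes of the pathway rose, 1 fell and the median was -0.10. *Aldh1a2* is also a marker of the coelomic mesothelium, a list of which 12 of 18 members rose and whose array means were 8.18, 8.13 and 7.93 at 1 h, against 6.87, 7.23 and 7.08 at 0 h. The part of that tissue in the rise of *Aldh1a2* was not tested. *Cyp26b1*, which degrades retinoic acid in the distal limb, lay at 7.90, 8.23 and 8.87 at 1 h and at 8.98, 9.13 and 8.86 at 0 h (-0.66, adjusted p = 0.171), with overlap at the edge.

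Of 29 Wnt ligands and receptors 4 rose and 0 fell, against 2.79% and 1.12% of all genes. *Wnt2* lay at 9.01, 8.49 and 7.69 at 1 h and at 6.39, 5.23 and 5.01 at 0 h, and rose by 2.86 (adjusted p = 0.000442). *Fzd4*, a Wnt and norrin receptor, lay at 8.99, 9.29 and 9.19 at 1 h and at 8.08, 8.12 and 7.99 at 0 h (1.09, adjusted p = 0.000346). Each was higher on all 1 h arrays, and *Fzd4* varied little within the groups. The ligand *Wnt2b* rose by 1.04 (adjusted p = 0.00609) and the receptor *Fzd8* by 0.80 (adjusted p = 0.0109). Among 17 antagonists and feedback targets 4 rose and 1 fell. *Lgr5*, an R-spondin receptor, rose by 1.15 (adjusted p = 0.00963), *Sfrp1*, a secreted Wnt inhibitor, by 1.14 (adjusted p = 0.0132) and *Dkk2* by 1.01 (adjusted p = 0.0014). *Axin2*, the usual readout of canonical Wnt signalling, differed by 0.10 (adjusted p = 0.83), with overlapping groups. *Sfrp4*, another secreted inhibitor, fell by 3.03 (adjusted p = 0.0273) with 4.69, 4.86 and 4.83 at 1 h and 5.49, 8.97 and 9.0 at 0 h, so that the high values were those of 0 h replicates 2 and 3, and its change from 0 h replicate 1 alone was -0.70 (adjusted p = 0.721). The fourth rise was that of *Nkd1*, a Wnt feedback inhibitor (0.45, adjusted p = 0.0489), named after its values were seen. The median of the antagonist and feedback list was 0.10. Using 0 h replicate 1 alone, 1 gene of each list rose, and without 1 h replicate 1 the numbers were 3 ligands and receptors and 1 antagonist or feedback gene.

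In the Notch list 4 of 18 genes rose and 0 fell, against 2.79% and 1.12% of all genes. In it 15 lay above 0, and the median was 0.44. *Hey2*, a transcriptional target of Notch, lay at 8.29, 7.52 and 7.45 at 1 h and at 6.36, 5.90 and 5.94 at 0 h (1.68, adjusted p = 0.00366). *Mfng* and *Lfng*, which glycosylate Notch, rose by 0.89 and 0.62 (adjusted p = 0.0318 and 0.00993), and the ligand *Jag1* rose by 0.79 (adjusted p = 0.0213). Without 1 h replicate 1 the change of *Mfng* was 0.56 (adjusted p = 0.135). That array held the highest value of *Hey2*, *Mfng* and *Lfng*, and without it 1 of the 18 genes was called, as from 0 h replicate 1 alone. In the Bmp list 3 of 22 rose and 0 fell. They were *Gdf10*, a secreted factor of the Tgf-beta family (1.83, adjusted p = 0.000292), *Bmp5* (0.78, adjusted p = 0.0025) and the target gene *Id3* (0.59, adjusted p = 0.0196, with 0.31 from 0 h replicate 1 alone), and 1 gene rose from 0 h replicate 1 alone.

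Among genes of the ridge and the polarizing activity, 0 of 15 in the Fgf feedback list rose and 1 fell. In the hedgehog list 1 of 14 rose and 1 fell, and of 27 genes of ectoderm and ridge 1 rose and 1 fell. Over all genes 3.91% were called, so these short lists held no fewer calls than that share. *Fgf8* lay at 7.81, 8.12 and 7.87 at 1 h and at 9.27, 8.36 and 8.32 at 0 h, and fell by 0.71 (adjusted p = 0.049). The groups did not overlap, and 0 h replicate 1 was well above the others. Its change was -1.33 (adjusted p = 0.00286) from that array alone and -0.65 (adjusted p = 0.171) without 1 h replicate 1. *Etv5*, a transcription factor induced by Fgf, lay at 8.51, 8.05 and 8.71 at 1 h and at 9.29, 9.30 and 9.12 at 0 h (-0.81, adjusted p = 0.0239). It was the single member called among 15 genes of Fgf feedback. *Dusp6*, *Spry4* and *Etv4*, also targets of Fgf, had values of -0.22, -0.51 and -0.55 with adjusted p = 0.502, 0.211 and 0.235, and their groups overlapped. *Shh* lay at 8.52, 6.58 and 8.02 at 1 h and at 8.22, 7.79 and 7.85 at 0 h (-0.25, adjusted p = 0.782), so 1 h replicate 2 was below all other arrays. *Ptch1* and *Gli1*, its target genes, had -0.28 and -0.35 (adjusted p = 0.27 for both). In the hedgehog list *Hand2*, a basic helix-loop-helix factor upstream of *Shh*, fell by 0.82 (adjusted p = 0.021) and the co-receptor *Boc* rose by 0.45 (adjusted p = 0.0334). Against 0 h replicate 1 alone, and likewise without 1 h replicate 1, 0 genes of the Fgf and hedgehog lists were called by limma.

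Of 30 genes of the extracellular matrix 9 rose, 1 fell and 20 were not called, where 2.79% of all genes rose and 1.12% fell. *Tnc* lay at 9.83, 10.38 and 9.35 at 1 h and at 6.53, 6.25 and 6.13 at 0 h, a change of 3.55 (SE 0.26, adjusted p = 5.86e-07; gene 21923, chromosome 4, 63959785 to 64047015). *Efemp1*, a fibulin of elastic and basement matrices, lay at 9.17, 9.25 and 9.02 at 1 h and at 7.30, 6.83 and 6.45 at 0 h (2.29, SE 0.16, adjusted p = 4.34e-07; gene 216616, chromosome 11, 28853154 to 28926743). The gap between the groups exceeded the spread within either group in both genes. *Thbs4* lay at 8.75, 7.64 and 7.0 at 1 h and between 5.61 and 5.64 at 0 h (2.18, adjusted p = 0.0016). The median of the list was 0.33. With 0 h replicate 1 as the 0 h group, 8 rose and 0 fell, and without 1 h replicate 1 9 rose and 0 fell. The gene that fell was *Mfap5*, a microfibril glycoprotein, at 4.67, 5.05 and 4.75 at 1 h and at 5.92, 9.04 and 8.73 at 0 h (-3.07, adjusted p = 0.0151). Its high values were those of 0 h replicates 2 and 3, and from 0 h replicate 1 alone the change was -1.1 (adjusted p = 0.509). Of 22 collagens *Col12a1*, a fibril-associated collagen, rose by 1.32 (adjusted p = 0.00138) and *Col1a1* by 0.76 (adjusted p = 0.0386), while *Col4a1*, of basement membranes, fell by 0.56 (adjusted p = 0.0351), with -0.33 (adjusted p = 0.465) from 0 h replicate 1 alone. Of 19 genes of cartilage 0 were called by limma. *Sox9*, the master regulator of cartilage, differed by 0.06 (adjusted p = 0.897), and *Sox6*, its partner, by 0.79 (adjusted p = 0.0599). The adhesion molecule *Ncam1* rose by 1.37 (adjusted p = 0.00132).

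Markers of the limb's own regions differed in direction. Of 23 genes of the distal mesenchyme 5 fell and 1 rose, against 1.12% and 2.79% of all genes. In this list 20 lay below 0, and the median was -0.31. *Hoxa11*, which patterns the middle segment of the limb and its distal border, lay at 8.12, 8.31 and 9.08 at 1 h and at 9.84, 10.10 and 9.84 at 0 h (-1.42, SE 0.25, adjusted p = 0.00366). *Lhx2*, needed for outgrowth under the ridge, lay at 9.23, 9.70 and 10.51 at 1 h and at 11.06, 11.04 and 10.86 at 0 h (-1.17, adjusted p = 0.00776). In both genes 1 h replicate 3 was nearest to the 0 h arrays. *Hoxd10* fell by 1.13 (adjusted p = 0.0205) and *Lhx9* by 0.96 (adjusted p = 0.0215), and *Lhx9* had -0.63 (adjusted p = 0.101) without 1 h replicate 1. *Hoxd13*, the most distal of these Hox genes, lay at 8.84, 8.72 and 10.34 at 1 h and at 9.70, 9.64 and 10.19 at 0 h, so that its groups overlapped. The number of distal genes that fell was 0 from 0 h replicate 1 alone and 2 without 1 h replicate 1, although the median from 0 h replicate 1 was -0.40. Of 15 markers of forelimb mesenchyme *Lmx1b*, the dorsal determinant, fell by 0.75 (adjusted p = 0.0326) and *Prrx1*, a paired-type homeobox gene, by 0.53 (adjusted p = 0.0405), with -0.34 for *Prrx1* without 1 h replicate 1, and the median was -0.29, with 0 called by limma in either reduced fit. Of 27 genes of ectoderm and ridge *Fgf8* fell and *Krt15*, an epithelial keratin, rose by 0.60 (adjusted p = 0.0431).

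Rises prevailed among the calls in 2 lists of tissue at the base of the limb, where 2.79% of all genes rose and 1.12% fell. Of 18 markers of the coelomic mesothelium, the lining of the body cavity beside the limb, 12 rose and 2 fell, with a median of 0.99. *Upk3b*, a uroplakin of this lining, lay at 9.26, 9.29 and 8.85 at 1 h and at 6.34, 6.72 and 6.70 at 0 h (2.54, adjusted p = 0.00058). *Lrrn4*, a leucine-rich repeat protein of mesothelium, lay at 7.72, 7.97 and 7.58 at 1 h and at 5.49, 5.40 and 5.58 at 0 h (2.27, adjusted p = 0.00161). *Gata5*, a GATA factor of the coelomic lining, lay at 8.86, 8.40 and 7.90 at 1 h and at 6.74, 6.24 and 6.20 at 0 h (1.99, adjusted p = 0.000232). All 3 genes were clear of overlap. Array means of the list were 8.18, 8.13 and 7.93 at 1 h, against 6.87, 7.23 and 7.08 at 0 h, so each 1 h array stood above each 0 h array. From 0 h replicate 1 alone 8 members rose and 0 fell, and without 1 h replicate 1 11 rose and 0 fell. The members that fell were *Krt19*, an epithelial keratin (-1.0, adjusted p = 0.0259), and *Dmkn*, a secreted protein of epithelia (-1.95, adjusted p = 0.0131), both named after their values were seen, and both higher in 0 h replicates 2 and 3 than in replicate 1. Of 27 genes expressed in proximal limb, girdle or flank tissue 6 rose and 0 fell, with a median of 0.32. *Foxc2*, a forkhead factor of proximal mesoderm, lay at 8.54, 8.69 and 8.63 at 1 h and at 7.16, 6.70 and 6.51 at 0 h (1.83, adjusted p = 0.00132), while *Alx1* and *Hoxc5* rose by 1.37 and 1.32 (adjusted p = 0.0157 and 0.018), against values of 0.58 and 0.53 from 0 h replicate 1 alone, where neither was called. From 0 h replicate 1 alone 0 of these 27 were called, and the median was 0.22, whereas 3 rose without 1 h replicate 1. The border along which each FB was cut is not given, so more flank tissue in the 1 h samples and more RNA per cell cannot be told apart.

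Part of the contractile genes rose, where 2.79% of all genes rose and 1.12% fell. Of 31 genes of skeletal muscle and its precursors 11 rose and 0 fell, with 28 above 0 and a median of 0.78. *Myl1*, a fast myosin light chain, lay at 9.42, 8.39 and 8.37 at 1 h and at 6.92, 5.90 and 5.09 at 0 h (2.76, adjusted p = 0.00244). *Tnnc1*, the troponin C of slow and cardiac fibres, lay at 8.69, 7.69 and 7.55 at 1 h and at 6.49, 4.98 and 4.66 at 0 h (2.60, adjusted p = 0.00776). In both genes replicate 1 was the highest of its group at 1 h and at 0 h, and the groups did not overlap. From 0 h replicate 1 alone 1 muscle gene rose, and 4 rose without 1 h replicate 1, with a median from 0 h replicate 1 of 0.74. *Myl1* and *Tnnc1* had 1.80 (adjusted p = 0.14) and 1.49 (adjusted p = 0.29) from that array. Of 17 genes of smooth muscle 5 rose, led by *Acta2* with 11.64, 11.07 and 10.86 at 1 h and 8.82, 8.65 and 8.21 at 0 h (2.63, SE 0.22, adjusted p = 2.09e-06). *Acta2* was called in both reduced fits (2.37, adjusted p = 0.0011, and 2.41, adjusted p = 1.34e-05). *Tagln*, which binds actin in the same cells, rose by 1.57 (adjusted p = 0.00138). Of 13 heart muscle genes 3 rose and 0 fell, with 7 above 0 and 6 below. The median of that list was 0.16, and 0.0 from 0 h replicate 1. The 3 that rose were *Corin*, a protease of cardiac muscle (1.78, adjusted p = 0.000483), *Smyd1*, a methyltransferase of striated muscle (1.89, adjusted p = 0.00845), and *Tnnt2*, cardiac troponin T (1.59, adjusted p = 0.00317). From 0 h replicate 1 alone 3 smooth muscle genes and 1 heart gene rose, and without 1 h replicate 1 the numbers were 2 and 2.

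Neuronal genes were highest in 1 array. The array means over 33 genes of neurons and sympathetic ganglia were 8.93, 6.37 and 6.39 at 1 h, against 6.0, 5.93 and 5.88 at 0 h. *Nefl*, a neurofilament, lay at 12.11, 8.66 and 9.0 at 1 h and at 7.04, 6.89 and 6.52 at 0 h (3.11, adjusted p = 0.00445). *Chrna3*, an acetylcholine receptor subunit of autonomic ganglia, lay at 10.38, 6.94 and 6.84 at 1 h and at 5.27, 4.93 and 5.09 at 0 h (2.96, adjusted p = 0.011). Replicates 2 and 3 of the 1 h group were well below replicate 1 and still above every 0 h array. Of the list 6 rose and 0 fell, against 2.79% and 1.12% of all genes, and 5 rose without 1 h replicate 1. The median change was 1.09 with all arrays, 1.07 from 0 h replicate 1 alone and 0.39 without 1 h replicate 1. Without 1 h replicate 1 *Nefl* rose by 2.02 (adjusted p = 7.64e-05), *Chrna3* by 1.79 (adjusted p = 0.0018) and *Dbh*, the enzyme that makes noradrenaline, by 1.98 (adjusted p = 0.0193). Of 18 genes of neural crest and Schwann cells 9 rose and 0 fell, with 6 rises without that array and 2 from 0 h replicate 1 alone. *Fabp7* lay at 12.23, 7.47 and 7.02 at 1 h and at 5.01, 5.33 and 4.59 at 0 h, and without 1 h replicate 1 its change was 2.27 (adjusted p = 0.00445) in place of 3.93. *Ednrb*, the endothelin receptor of crest cells, lay at 10.43, 8.45 and 8.22 at 1 h and at 6.73, 7.34 and 7.07 at 0 h, and rose by 1.99 (adjusted p = 0.00504), or 1.29 (adjusted p = 0.000545) without 1 h replicate 1. *Ntrk2*, a neurotrophin receptor, lay at 8.59, 8.43 and 8.04 at 1 h and at 5.92, 6.35 and 5.95 at 0 h, and rose by 2.28 (SE 0.19, adjusted p = 2.31e-06) with little spread in either group.

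Vessels and blood cells gave calls near the share of 3.91% over all genes, given how short the lists are. Of 28 endothelial genes *Tek*, the angiopoietin receptor, rose by 0.63 (adjusted p = 0.0375) and *Apln*, the tip cell peptide apelin, fell by 0.65 (adjusted p = 0.0259). Of 22 macrophage genes *Pf4*, a platelet chemokine, fell by 0.81 (adjusted p = 0.0294). Its change was -0.37 (adjusted p = 0.522) from 0 h replicate 1 alone, and without 1 h replicate 1 the adjusted p was 0.138. Of 18 erythroid genes 0 were called by limma, although all 18 lay below 0 with a median of -0.93. Array means of this list were 8.07, 7.46 and 8.52 at 1 h, against 7.74, 9.26 and 9.63 at 0 h, so 0 h replicate 1 was within the range of the 1 h arrays. The median change was 0.24 from 0 h replicate 1 and -1.59 from 0 h replicates 2 and 3.

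**Figure D3:**
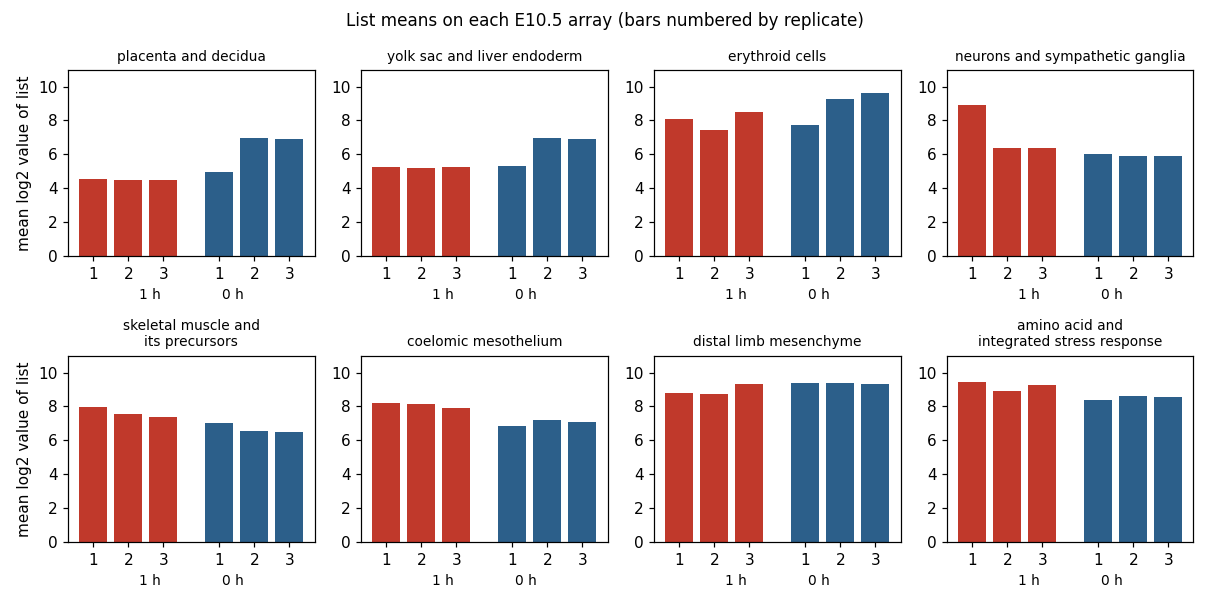
Mean log2 value of 8 gene lists on each E10.5 array, with 1 h replicates 1 to 3 in red on the left and 0 h replicates 1 to 3 in blue on the right of each panel; bars start at 0. Placenta and decidua, yolk sac and erythroid means are highest in 0 h replicates 2 and 3, and the neuronal mean is highest in 1 h replicate 1 (8.93), while the mesothelial mean is higher on every 1 h array.

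The large falls followed the 0 h replicates. *Prl8a2*, a prolactin family gene of the decidua, lay at 3.95, 4.49 and 4.55 at 1 h and at 9.46, 12.67 and 12.56 at 0 h (SE 0.85, adjusted p = 0.000127; gene 13529, chromosome 13, 27345673 to 27354216). *Erv3*, a gene named for an endogenous retrovirus, lay at 4.62, 5.01 and 4.48 at 1 h and at 9.37, 13.19 and 12.78 at 0 h (adjusted p = 0.0002). Both genes were also raised in 0 h replicate 1, though less, and from it alone the changes of *Prl8a2* and *Erv3* were -5.13 (adjusted p = 0.0217) and -4.67 (adjusted p = 0.0308). In the next largest falls 0 h replicate 1 was much closer to the 1 h arrays. *Aoc1*, a diamine oxidase, lay at 3.76, 4.08 and 4.37 at 1 h and at 6.02, 10.95 and 10.76 at 0 h, and its change of -5.17 was -1.95 (adjusted p = 0.329) from 0 h replicate 1 alone. *Gzmd*, a granzyme of uterine natural killer cells, lay at 3.06, 3.21 and 3.20 at 1 h and at 4.14, 9.39 and 9.56 at 0 h. For *Gzmd* the fall of 4.54 (adjusted p = 0.0206) was -0.98 (adjusted p = 0.68) from 0 h replicate 1 alone. The same pattern was seen in *Cyp11a1* and *Star*, which make steroids, with 3.57, 3.98 and 4.56 at 1 h against 5.27, 9.72 and 9.55 at 0 h for *Cyp11a1*. From 0 h replicate 1 alone *Prl7a1* had -3.02, *Cyp11a1* -1.23 and *Star* -0.86, with adjusted p of 0.166, 0.55 and 0.635.

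Of 26 genes of placenta and decidua 7 fell and 0 rose, against 1.12% and 2.79% of all genes, and 2 fell without 1 h replicate 1. The median change was -0.12 from 0 h replicate 1 and -1.81 from 0 h replicates 2 and 3. Array means of the list were 4.56, 4.47 and 4.49 at 1 h, against 4.97, 6.98 and 6.90 at 0 h. Over 21 genes of yolk sac and liver endoderm the array means were 5.28, 5.17 and 5.26 at 1 h, against 5.32, 6.98 and 6.93 at 0 h. In both lists 0 h replicate 1 was near the 1 h arrays and the other 0 h arrays were well above. *Afp*, alpha-fetoprotein of the yolk sac, lay at 4.72, 4.10 and 5.16 at 1 h and at 5.38, 10.37 and 10.35 at 0 h, yet its fitted change of -4.04 had adjusted p = 0.172, and 0 genes of the yolk sac list were called by limma.

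Across all genes, 114 (0.767%) were at least 2 log2 units higher in both 0 h replicates 2 and 3 than in 0 h replicate 1, and 2 were at least 2 units lower in both. At 1 unit the numbers were 349 and 34. The widest gap belonged to *AY036118*, at 5.98 in 0 h replicate 1 against 11.56 and 11.91 in the others, and between 11.72 and 12.01 at 1 h. Of the 114 genes 42 were called lower at 1 h and 0 higher. Their median change was -3.00 from 0 h replicates 2 and 3 and -0.18 from 0 h replicate 1. The 114 genes were chosen by that gap. The distance between these medians and the direction of the calls therefore follow in part from the choice. Among the 2 genes with the reverse gap was *Car3*, a carbonic anhydrase of muscle and fat, at 7.99 in 0 h replicate 1 against 5.94 and 5.46 in the others. *Car3* rose by 2.50 at 1 h (adjusted p = 0.00845), and by 0.97 (adjusted p = 0.373) from 0 h replicate 1 alone.

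The 0 h replicates bore unequally on the size of rises and falls, but little on their direction. Of the 414 genes that rose, 402 (97.1%) showed at least 0.5 of their change when measured from 0 h replicate 1, and in 411 all 1 h arrays lay above that array. Their median change was 0.82 from 0 h replicate 1 and 0.90 from 0 h replicates 2 and 3. Of the 167 genes that fell, 95 (56.9%) showed at least 0.5 of their change from 0 h replicate 1, with a median of -0.55 from it and -0.87 from the others. In 166 of the 167 all 1 h arrays lay below 0 h replicate 1. These counts describe genes that were called with all 0 h arrays. Over all genes 70.4% showed at least 0.5 of their change from 0 h replicate 1. When placental and decidual signal, as the list's mean, entered the model as a covariate, 117 genes rose and 25 fell. That covariate takes its lowest values at 1 h, so it shares part of its variation with culture. The part of decidual and yolk sac RNA in the other falls was not tested.

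**Figure D4:**
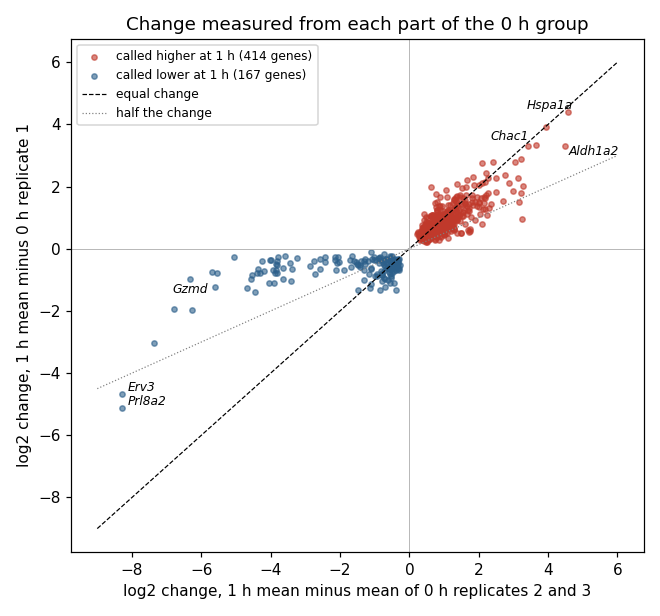
Log2 change of each called gene in E10.5 FBs, measured from the mean of 0 h replicates 2 and 3 (horizontal) and from 0 h replicate 1 (vertical), for 414 genes called higher (red) and 167 called lower (blue) at 1 h. Red points follow the dashed line of equal change, whereas many blue points run along a band just below 0 on the vertical axis; the dotted line marks 0.5 of the change.

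The first hour of culture was also measured in E12.5 FBs, on arrays that share no sample with those of E10.5. There 191 genes rose (1.29%) and 123 fell (0.828%), in all 2.11%. The yolk sac and liver list averaged 5.66, 5.18 and 7.79 on the E12.5 0 h arrays and 5.29, 5.24 and 5.18 at 1 h. So E12.5 0 h replicate 3 was raised in this list. The median change of the list was -1.03 at both stages, and 0 of its genes were called by limma at E12.5. Of the 414 genes that rose in E10.5 FBs, 58 (14%) also rose in E12.5 FBs and 1 fell, and these 58 are 30.4% of the E12.5 rises. The sign was the same in 333 (80.4%), and the median change was 0.90 in E10.5 FBs and 0.29 in E12.5 FBs. Of the 167 genes that fell, 13 (7.78%) fell in both stages, which is 10.6% of the E12.5 falls, 1 rose in E12.5 FBs, and the sign was the same in 106 (63.5%). The median of the 167 was -0.81 in E10.5 FBs and -0.07 in E12.5 FBs. Since these genes were called on the E10.5 arrays, their E10.5 medians are larger by that choice.

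The difference between the stages was tested for each gene. The change in E10.5 FBs was higher for 58 genes (0.39%) and lower for 22 (0.148%), together 80 genes (0.538%). *Aldh1a2* averaged 10.92 ± 0.20 (SD, n = 3) at 1 h and 11.18 ± 0.30 at 0 h in E12.5 FBs, so that its level there was high before culture, and the difference between the changes was 4.35 (adjusted p = 0.000127). *Tnc* changed by 3.55 in E10.5 FBs and had 0.44 (adjusted p = 0.531) in E12.5 FBs, a difference of 3.11 (adjusted p = 0.000732). *Jun* averaged 9.84 ± 0.09 at 1 h and 9.89 ± 0.08 at 0 h in E12.5 FBs, and the difference was 1.80 (adjusted p = 0.000878). All 3 genes stood higher in fresh E12.5 FBs than in fresh E10.5 FBs. *Foxc2* rose in E10.5 FBs and had -1.01 (adjusted p = 0.0746) in E12.5 FBs, a difference of 2.84 (adjusted p = 0.00186). *Ndnf*, a secreted neurotrophic factor, *Gdf10*, *Ntrk2* and *Acta2* also changed more in E10.5 FBs, by 2.68, 2.22, 2.10 and 2.07. From 0 h replicate 1 alone these differences were 1.93, 1.88, 2.25 and 1.81, and that of *Foxc2* was 2.47. Not all of these calls held in that fit, but with 1 array at 0 h it has less power. A lost call there does not by itself show a smaller difference. In the other direction *Cxcl13*, a chemokine of lymphoid tissue, rose in both, by 1.67 (adjusted p = 0.000294) in E10.5 FBs and 3.13 (adjusted p = 6.19e-07) in E12.5 FBs. *Adh1*, which oxidizes retinol, had 0.70 (adjusted p = 0.157) in E10.5 FBs and rose by 2.83 (adjusted p = 1.38e-05) in E12.5 FBs. *A2m*, a protease inhibitor, had a difference of -6.96 (adjusted p = 0.00901), with 5.06, 5.09 and 5.03 at 1 h and 7.02, 11.46 and 11.22 at 0 h in E10.5 FBs. From 0 h replicate 1 alone this difference was -4.08 (adjusted p = 0.0478), although the E10.5 change itself was then -1.96 (adjusted p = 0.153).

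*Hspa1a* rose at both stages. It averaged 10.78 ± 0.75 at 1 h and 7.82 ± 0.32 at 0 h in E12.5 FBs (SD, n = 3), a rise of 2.96 (adjusted p = 0.00116), and the difference from the E10.5 change was 1.55 (adjusted p = 0.329). *Wnt2b* and *Sfrp1* rose at both stages too, with 1.53 (adjusted p = 0.000426) and 1.61 (adjusted p = 0.00167) in E12.5 FBs. *Chac1* and *Atf3* had smaller values in E12.5 FBs, 1.32 (adjusted p = 0.339) and 0.92 (adjusted p = 0.232), but the difference between the stages was not called (2.07, adjusted p = 0.366, and 1.39, adjusted p = 0.274). *Plk1* and *Kif23* fell at both stages, and 5 genes of the mitosis list fell in E12.5 FBs. In that list the median was -0.21 in E10.5 FBs and -0.33 in E12.5 FBs. Of the distal mesenchyme list 4 genes fell and 0 rose in E12.5 FBs, where 0.828% of all genes fell, and its median was -0.59. *Hoxa11* had -1.19 (adjusted p = 0.0181) and *Hoxc5* 2.85 (adjusted p = 6e-05) in E12.5 FBs.

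**Figure D5:**
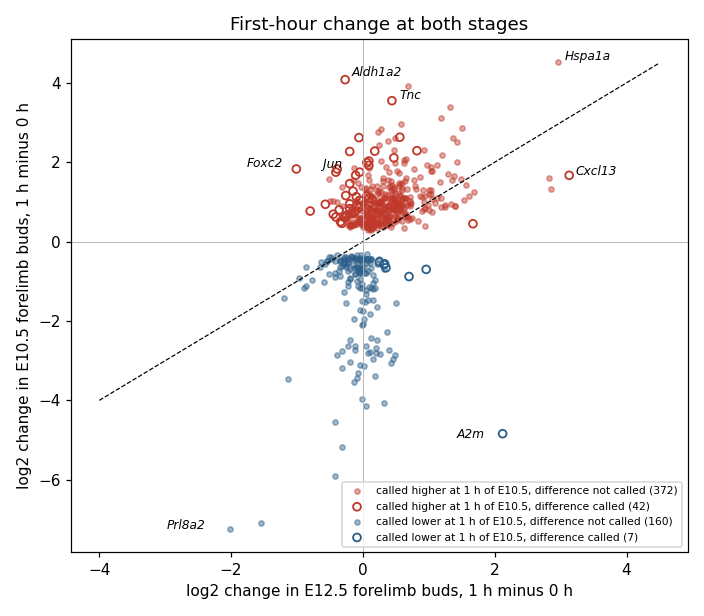
Log2 change over the first hour in E12.5 FBs (horizontal) and E10.5 FBs (vertical) for genes called higher (red) or lower (blue) at 1 h of E10.5; open circles mark genes whose change differed between the stages, and the dashed line marks equal change. *Hspa1a* is high on both axes, and *Aldh1a2* and *Tnc* lie near 0 on the horizontal axis. The genes that fell most in E10.5 FBs, *Prl8a2* and *Erv3*, were also lower at 1 h in E12.5 FBs. Their E12.5 changes were -2.02 and -1.54 (limma, adjusted p = 0.292 and 0.5), and neither was called there. The next largest E10.5 falls differed in direction in E12.5 FBs, with -0.43 for *Prl7a1*, -0.32 for *Aoc1* and 2.12 for *A2m*.

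Between 1 h and 3 h of E10.5 culture 0 genes (0.0%) were called by limma in either direction, with a lowest adjusted p of 0.067 and 1409 genes at an unadjusted p under 0.05. The 1 h arrays are shared with the first-hour comparison, so the levels are set side by side. *Hspa1a* averaged 12.11 ± 0.92 at 3 h (SD, n = 3) and 12.17 ± 0.24 at 1 h. *Chac1* averaged 9.76 ± 1.17 at 3 h and 10.87 ± 0.50 at 1 h, and *Atf3* 8.64 ± 0.82 at 3 h and 9.03 ± 0.58 at 1 h. *Jun* averaged 9.93 ± 0.26 at 3 h and 10.45 ± 0.14 at 1 h. The means of these stress genes at 3 h were at or below those at 1 h, and none of the differences was called. *Tnc* averaged 10.48 ± 0.60 at 3 h and 9.85 ± 0.52 at 1 h, and *Upk3b* 9.77 ± 0.45 at 3 h and 9.13 ± 0.25 at 1 h. *Prl8a2* averaged 4.24 ± 0.34 at 3 h, but 10.85 ± 1.42 at 6 h of E10.5 culture.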

How the data were processed

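Per the labels, total RNA was turned into biotin-labelled cDNA and hybridized to Affymetrix Mouse Exon 1.0 ST arrays. The deposited values are log2 values that the authors made by RMA in Affymetrix Expression Console, whose version and genome build are not given in the sources used here. Of 23332 transcript clusters, 14996 name 1 gene, 1019 several and 7317 none. Clusters of 1 gene were kept, the one with the highest mean standing for a gene, which left 14860 genes. Names and positions are those of GRCm38.p6.

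All 21 arrays entered a model with 7 group means (limma 3.58.1, R 4.3.3), with Benjamini-Hochberg adjustment over all genes and calls at an adjusted p under 0.05. The change at 1 h, that of E12.5, their difference and the step to 3 h were contrasts of it. With 3 arrays a group, an exact permutation test of a single gene cannot go below 0.1. The number of arrays limits the precision. Scripts were tested on simulated data. Of the reduced fits, that from 0 h replicate 1 alone left out 0 h replicates 2 and 3, so that the lone array is assumed to vary like the other groups, and the other left out 1 h replicate 1. An unmoderated t statistic for each gene was tried too. The study states a threshold of p under 0.01 for the arrays and names no test for them. Same-numbered arrays did not pair (correlations of deviations 0.019, -0.018 and 0.125). The genes chosen for naming are the 15 largest non-overlapping rises and falls called, up to 4 called members of each list (or the 2 largest changes where none was called), the 10 largest differences between stages and between the 0 h arrays in each direction, and a fixed set of limb and stress genes. Not all of them are described above. Of the fixed set *Tbx1* (0.05), *Tbx4* (0.20), *Fgf4* (-0.28), *Fgf10* (-0.47), *Grem1* (-0.11) and *Txnip* (0.87) were not called at 1 h of E10.5. *Hoxa13* and *Rarb* of that set were not measured. The members and lists were chosen with earlier results of these data known. The alternatives tried are other scalings, gene filters, fits and left-out arrays.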

Additional observations from a re-analysis of the deposited data

Results flagged for a closer look

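The first-hour change differed between E10.5 and E12.5 FBs in 80 genes by limma's test of the difference (adjusted p under 0.05), and the genes named here are those among the genes chosen for naming. Differences are given as the E10.5 change minus the E12.5 change, on the log2 scale. From 0 h replicate 1 alone each named difference kept its sign. Not all were called there, but a fit with 1 array at 0 h has less power. A call lost in it does not by itself show a smaller difference, as in *Lrrn4*, with 2.47 in both fits. The difference was above 0 for *Aldh1a2* (4.35), *Tnc* (3.11), *Foxc2* (2.84), *Ndnf* (2.68), *Lrrn4* (2.47), *Gdf10* (2.22), *Kcnab1* (2.17), *Ntrk2* (2.10), *Acta2* (2.07), *Gata5* (1.94), *Mc2r* (1.94), *Jun* (1.80), *Efemp1* (1.47), *Fzd4* (1.01) and *Plk2* (0.89). It was below 0 for *A2m* (-6.96), *Cemip* (-2.39), *Adh1* (-2.14), *Thy1* (-1.66), *Vegfd* (-1.58), *Ephb1* (-1.48), *Cxcl13* (-1.46), *Gpr83* (-1.44), *Nnmt* (-1.44) and *Ccl11* (-1.30). *Thy1*, a surface glycoprotein of neurons and mesenchyme, fell by 0.70 (adjusted p = 0.0193) in E10.5 FBs and rose by 0.96 (adjusted p = 0.00325) in E12.5 FBs.

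Signal also appeared in transcript clusters outside the comparison. Of 8472 clusters that name several genes or none or are further clusters of a gene, 34 (0.401%) were called between 1 h and 0 h of E10.5, with 23 higher and 11 lower.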

How the results depend on the processing

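Limits: 2 of the 6 arrays stand apart from their groups, and the counts depend on them. The count of 414 genes that rose was 928 with array weights, 109 with only the arrays of the comparison, 199 with 0 h replicate 1 as the only 0 h array, 117 with the placenta and decidua mean as a covariate, 752 at an unadjusted p under 0.01, 167 at an adjusted p under 0.01, 0 with the unmoderated test after Benjamini-Hochberg, and 194 to 385 with 1 array left out. For the 167 that fell these counts were 956, 15, 97, 25, 432, 20, 0 and 28 to 456, with 456, 28 and 39 when 0 h replicates 1, 2 and 3 were left out in turn. It was 298 with a common median, 328 with quantile and 287 with loess normalization, and 87 over all features. Leaving out 0 h replicate 2 gave 211 rises, 0 h replicate 3 gave 194, and 1 h replicate 1 gave 199 rises and 41 falls. The 314 E12.5 calls were 519 (quantile), 491 (loess), 206 (all features), 1479 (weights), 621 (groups compared only), 863 (unadjusted), 106 (adjusted p under 0.01), 923 and 1 (unmoderated test, unadjusted p under 0.01 and after Benjamini-Hochberg), and 106 to 252 with 1 array left out. The 80 differences were, in that order, 140, 132, 35, 1074, 143, 568, 23, 784, 51 and 34 to 301, with 38 from 0 h replicate 1 alone and 52 with the covariate. The 0 calls between 3 h and 1 h by limma were 1 (common median), 2 (quantile), 2 (loess), 1 (gene filter), 1 (trend and robust options), 153 (weights), 5 (covariate), 338 (unadjusted p under 0.01), 208 (unmoderated test) and 0 to 1. The 114 genes raised in 0 h replicates 2 and 3 were 72 after the filter on low genes and 349 at 1 log2 unit. With the covariate the sign turned for *Ctsj* (0.08), *Prap1* (0.31), *Serpinb9b* (0.24) and *Sfrp4* (0.11). With the replicate number as a block 424 genes rose, 179 fell, 294 were called in E12.5 FBs, 59 differed and 1 was called between 3 h and 1 h. The causes were not tested.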
